A study of Homo sapiens with 6 samples.

Results

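The genes described here encode the proteasome: the subunits of its core particle and of its regulatory cap, the factors that assemble them, and the alternative activators and inhibitor of the core. They were chosen by name alone, as the loci whose gene symbol begins with PSMA to PSMG and a number, plus POMP, ADRM1 and NFE2L1. Of 51 such symbols in the lists used, 34 had a locus of that name among 6357 assembled loci, 4926 of which carry a gene name. The other 17 symbols (PSMA1, PSMA2, PSMA3, PSMA6, PSMA8, PSMB7, PSMB9, PSMB10, PSMB11, PSMC2, PSMD4, PSMD14, PSMD5, PSMD10, PSME2, PSME4 and NFE2L1) were not listed by name in the table, and nothing is reported on them.

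RNA was sequenced from HepG2, a human liver tumour cell line, in 2 groups of 3 libraries: unedited cells (WT) and cells in which the fructosamine-3-kinase gene FN3K had been knocked out with CRISPR-Cas (FN3K KO). Both groups grew in Eagle's Minimum Essential Medium with 10% fetal bovine serum and received no other treatment named in the labels, and mRNA was captured on oligo(dT) beads. The 3 libraries of a group came from 3 plates, and the number of KO clones behind them is not given in the sources used here. The p-values therefore measure the spread between plates, and a difference between genotypes cannot be told apart from one between the lines. The values are FPKM (fragments scaled to transcript length and to the fragments mapped in the library), and the depth of the libraries is unknown. The FPKM of FN3K itself was 27.7, 21.9 and 23.2 in the WT libraries against 0.782, 1.03 and 0.704 in the KO libraries, as labelled. Values are given in the order of replicates 1, 2 and 3 throughout. Of 8 hepatocyte markers 7 were listed by name (ALB was not), at a summed 7821 to 7942 FPKM in WT and 14476 to 15705 FPKM in KO. The markers differed unevenly. The mean of AFP was 1537 FPKM in WT and 6206 FPKM in KO, and APOA1, APOB, FGB and TTR were also higher in KO. TF had means of 1990 FPKM in WT and 1951 FPKM in KO, and SERPINA1 1927 and 2041 FPKM. None of 7 markers of fibroblasts, leukocytes and endothelium was listed by name. In such bulk samples, fewer cells of a type and less RNA per cell cannot be told apart.

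The proteasome degrades proteins that carry chains of ubiquitin. Its core is a barrel of 4 stacked rings, with alpha subunits in the outer rings and beta subunits, some of them proteases, in the inner ones. The cap binds the ubiquitin chain, removes it, and unfolds the substrate with a ring of ATPases that feeds it into the core. The transcription factor NFE2L1 is known to raise the genes of core and cap together when proteasome activity falls short. It does so through antioxidant response elements, which it binds with small MAF proteins.

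Because members of the complex are known to share such elements, the promoters of RefSeq (GRCh38.p14, 250 bases before to 50 bases after each annotated start) were searched on both strands for the letters TGACNNNGC, the core of the antioxidant response element, and for CCAAT, the box bound by NF-Y. Matches of the 2 motifs can overlap only in part. Promoters were found for 30 of the 34 members, and PSMA7, PSMB1, PSMB6 and PSMG3 had no entry. Those shown were picked from called members of several structural classes because their windows hold a match. PSMD2, PSMD11, PSMC1 and PSMG4, with larger differences than ADRM1, held neither motif. Capitals mark TGACNNNGC, CCAAT or their reverse complements. Long windows hold the first 200 of the 250 bases before the start, and windows of 30 bases surround a match nearer to the start or after it.
PSMB5, chr14:23035271-23035470, minus strand: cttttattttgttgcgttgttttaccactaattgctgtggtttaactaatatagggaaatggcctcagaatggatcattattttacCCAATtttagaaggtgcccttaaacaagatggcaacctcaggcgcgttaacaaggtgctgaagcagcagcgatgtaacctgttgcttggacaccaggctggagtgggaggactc
PSMD1, chr2:231056887-231056916, plus strand: ggcggcctgaggaggcgacTGACTGAGCag
PSME1, chr14:24135944-24136143, plus strand: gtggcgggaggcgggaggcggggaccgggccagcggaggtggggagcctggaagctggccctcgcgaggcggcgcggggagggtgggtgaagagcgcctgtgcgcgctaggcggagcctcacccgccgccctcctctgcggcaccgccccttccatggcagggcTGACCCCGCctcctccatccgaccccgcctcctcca
PSMD3, chr17:39980557-39980756, plus strand: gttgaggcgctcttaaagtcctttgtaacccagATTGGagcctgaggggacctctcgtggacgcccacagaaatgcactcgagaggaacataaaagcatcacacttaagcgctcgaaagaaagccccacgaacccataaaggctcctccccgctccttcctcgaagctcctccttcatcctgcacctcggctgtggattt
PSMD3, chr17:39980760-39980789, plus strand: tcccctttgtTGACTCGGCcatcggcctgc
PSMD3, chr17:39980827-39980856, plus strand: ggggtttgcagctGCTCCGTCAtcgtgcgg
PSMC4, chr19:39971182-39971211, plus strand: acagaggccgGCTTGGTCActatggaggag
ADRM1, chr20:62302646-62302845, plus strand: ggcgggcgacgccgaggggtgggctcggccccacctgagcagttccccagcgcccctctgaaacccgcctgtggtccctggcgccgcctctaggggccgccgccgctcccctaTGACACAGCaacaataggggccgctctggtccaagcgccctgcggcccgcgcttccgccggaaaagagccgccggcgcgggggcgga
ADRM1, chr20:62302872-62302901, plus strand: gtcgccctcgCCAATcgttggcaggttaga
PSMG2, chr18:12658689-12658718, plus strand: cagtttcccgTGACCCCGCggccgctctgc

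The first base of the TGACNNNGC match lay at position -86 in the PSME1 promoter, -137 in ADRM1 and -39 in PSMG2, counted from the RefSeq start. PSMD3 held the motif at -37 and, as its reverse complement, at 34. In PSMD1 it began at 40 and in PSMC4, again reversed, at 28. The PSMB5 window held CCAAT at -164 and no TGACNNNGC. The RefSeq starts of all promoters shown lie inside the spans that GENCODE gives these genes, furthest in for ADRM1, then PSMG2 and PSMC4. TGACNNNGC was present in 13 of 39 member promoters (33.3%), against 13.3% of all 35116 promoters of the same length. The same ADRM1 match was counted at -137 and at -238, in overlapping promoters. Counted per gene with any of its promoters, 12 of 30 members (40%) held it, against 16.1% of 27305 genes. The share was 5 of 13 among members higher in KO, 1 of 3 among those lower, and 6 of 14 among those not called, shares between 33.3% and 42.9%. CCAAT was in 15 of 39 member promoters (38.5%), against 34.6% of all promoters. None of these backgrounds was limited to the genes listed here or matched for base composition. A match is a run of letters and is not by itself a binding site.

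Most core and cap subunits had higher levels in FN3K KO, with PSMB5 and PSMD1 furthest up, and the assembly chaperones PSMG2 and PSMG4 were lower. In limma on log2(FPKM + 1) over all 6357 loci, with Benjamini-Hochberg adjustment and a threshold of 0.05 on the adjusted p, 14 of 34 members rose in KO (41.2%) and 3 fell (8.82%). Over all loci, 21.2% rose and 36.5% fell. The median log2 fold change was 0.15 over the members and -0.14 over all loci, so the median locus was lower in KO. The summed FPKM of all loci was not: its mean was 294438 in WT and 299581 in KO, and its libraries overlapped. The mean log2 level was higher in KO for 27 of 34 members, against 38% of all loci. No member had a log2 fold change of more than 1 in either direction, a size that 7.63% of all loci reached together with an unadjusted p under 0.05. KO lay entirely above WT in 15 members and entirely below it in 6, against 23.6% and 39.8% of all loci (63.4% in either direction), and the groups overlapped in 13. For a single gene, the two-sided exact permutation test over 3 against 3 libraries cannot go below p = 0.10.

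**Figure D1:**
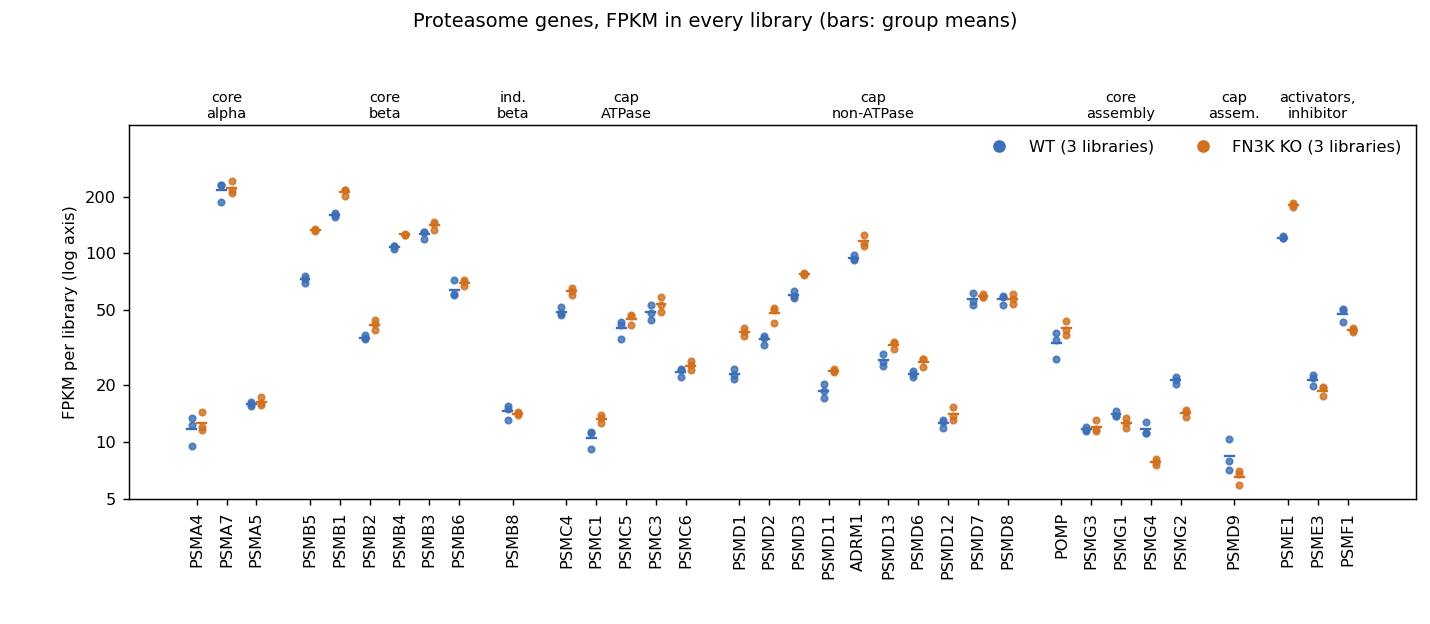
FPKM of the 34 proteasome genes in every library, on a log axis. Each point is a library (3 WT, 3 FN3K KO) and each short bar a group mean. The KO points of PSMB5, PSMD1 and PSME1 sit clear above their WT points, those of PSMG2 and PSMG4 clear below, and the alpha subunits overlap.

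The rise was found in the core and in the cap. Of the 24 core and cap subunits listed, 13 rose (54.2%) and 0 fell, with a median log2 fold change of 0.21. All 24 had a higher mean in KO. Without adjustment, limma gave 14 higher and 0 lower at p under 0.05. A plain linear model that carried Ballgown's covariate for libraries (hereafter the library adjustment) gave 7 higher and 0 lower after adjustment and 11 and 0 before it. The covariate is not a library total. It sums log2(FPKM + 1) over the loci of a library that are above 0 and below the 75th percentile of such loci. That model called far fewer loci in all, 9.53% higher and 8.2% lower, and it turned the balance of calls: 53.8% of all called loci were higher under it, against 36.7% in limma. With the libraries centred on a common median, 19 of the 24 rose and 0 fell, where 25.5% of all loci rose and 31% fell. Of the members outside core and cap, 1 of 10 rose (10%) and 3 fell (30%) in limma, with a median of -0.17. Over all loci 21.2% rose and 36.5% fell, with a median of -0.14, so the fall outside core and cap was close to that of all loci.

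**Figure D2:**
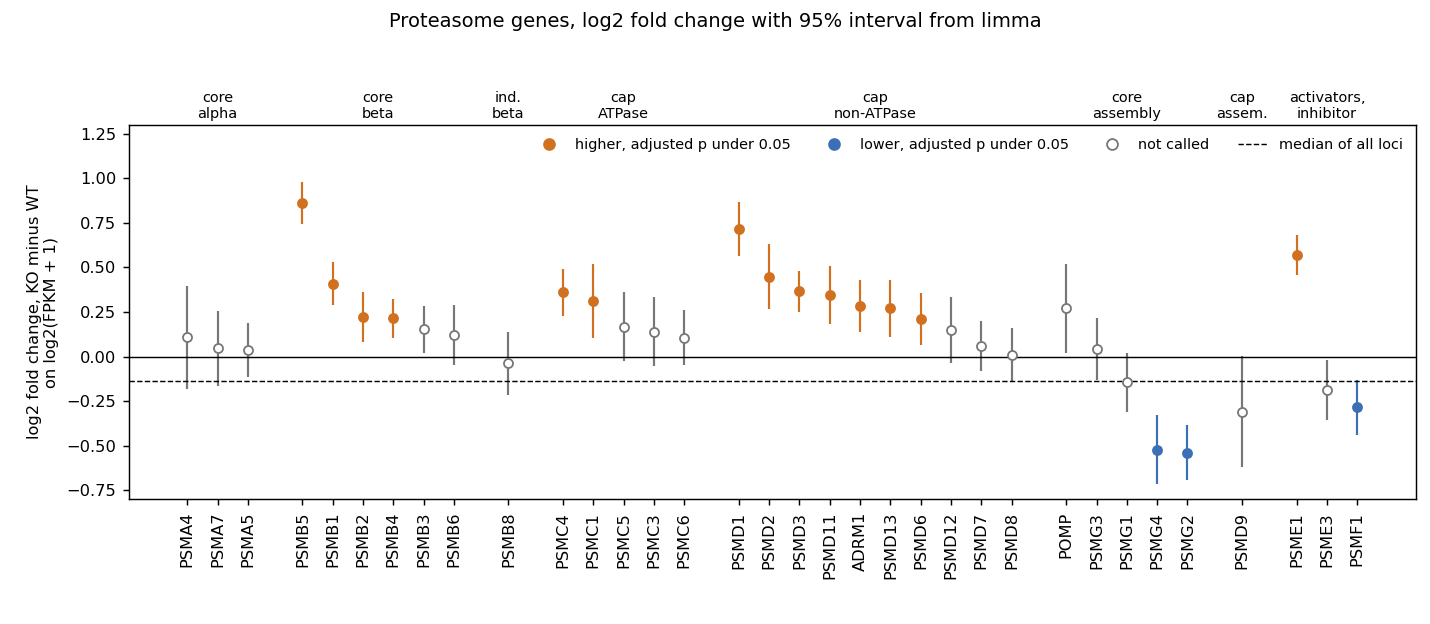
Log2 fold change (KO minus WT, on log2(FPKM + 1)) of each proteasome gene, with the 95% interval from limma. Filled points passed an adjusted p of 0.05, open ones did not, and the dashed line is the median of all loci at -0.14. All core and cap subunits sit above 0 and above that line.

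The alpha subunits form the outer rings of the core and the gate through which substrates enter. Only PSMA4, PSMA5 and PSMA7 of 8 were listed, and 0 of 3 were called in limma, with 0 also at an unadjusted p under 0.05. PSMA7, the most abundant member of the whole set, had 188, 229 and 230.1 FPKM in WT and 209, 243 and 216 FPKM in KO. PSMA4 had 9.56, 13.5 and 12.3 FPKM in WT and 11.66, 11.9969 and 14.47 FPKM in KO. PSMA5 had 15.6, 16.1 and 16.3 FPKM in WT and 15.8, 16.1 and 17.3 FPKM in KO. In all 3 genes the libraries of the groups overlapped, and WT replicate 1 was the lowest WT library. The log2 fold changes were 0.05 for PSMA7 (95% interval -0.16 to 0.26, adjusted p = 0.681), 0.11 for PSMA4 (-0.18 to 0.40, adjusted p = 0.493) and 0.04 for PSMA5 (-0.11 to 0.19, adjusted p = 0.654). These intervals do not hold a rise as large as that of PSMB5. The library adjustment put PSMA7 at 0.33 and past the threshold (adjusted p = 0.0499), while leaving out WT replicate 1 put it at -0.05.

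The constitutive beta subunits line the proteolytic chamber. Here 4 of 6 rose and 0 fell (limma at an unadjusted p under 0.05 gave 5 and 0, the library adjustment 3 and 0 after adjustment), and the median log2 fold change was 0.22. PSMB5 carries the chymotrypsin-like site, the target of bortezomib, and had the largest difference of all 34 members. It had 69.6, 73.5 and 75.9 FPKM in WT and 132, 135 and 133 FPKM in KO. The groups were far apart and the KO libraries lay close together. Its mean was 1.83 times that of WT (log2 fold change 0.86, standard error 0.052, adjusted p = 3.4e-06 from limma). PSMB5 lies on chromosome 14 from 23016543 to 23035230, minus strand (GENCODE version 29, GRCh38), and overlaps AL132780.4 on its own strand.

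PSMB1, a beta subunit without a protease site of its own, had 163, 159 and 157 FPKM in WT and 218, 202 and 217 FPKM in KO. The groups did not overlap (log2 fold change 0.41, standard error 0.054, adjusted p = 2.9e-04), at chromosome 6 from 170535117 to 170553341. PSMB2, another subunit with no active site, had 35.1, 35.5 and 37.1 FPKM in WT and 42.3, 39.2 and 44.6 FPKM in KO. It rose by less (log2 fold change 0.22, adjusted p = 0.0142) and was no longer called without KO replicate 3, at 0.18. PSMB4 was the fourth that rose, at 0.21. PSMB3 was at 0.15 and PSMB6, which carries the caspase-like site, at 0.12. Neither of these was called, although the groups did not overlap for PSMB3.

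Of the inducible beta subunits, which replace the constitutive proteases in the immunoproteasome, only PSMB8 was listed of 4. It had 13.2, 15.1 and 15.7 FPKM in WT and 14.4, 13.98 and 14.2 FPKM in KO. The groups overlapped, and the log2 fold change was -0.04 (95% interval -0.22 to 0.14), with the opposite sign, 0.03, when libraries were centred on a common median. So PSMB8 did not show the difference of PSMB5, the subunit it replaces, though the difference between the 2 genes was not tested. PSMB8 overlaps PSMB9 and PSMB8-AS1 on the other strand, and the strand of the libraries is not given in the sources used here.

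The ATPases of the cap form the ring that unfolds substrates. Of 5 listed, 2 rose and 0 fell, with a median of 0.17. Limma at an unadjusted p under 0.05 also gave 2 and 0, and the library adjustment 0 and 0 after adjustment (3 and 0 before it). PSMC4 had 47.1, 51.8 and 48.1 FPKM in WT and 63.3, 60.5 and 65.8 FPKM in KO. The groups did not overlap (log2 fold change 0.36, standard error 0.059, adjusted p = 9.1e-04). PSMC1, the least abundant subunit of core and cap in WT, had 9.23, 11.3 and 11.2 FPKM there and 13.9, 13.4 and 12.6 FPKM in KO. It rose by 0.31 (adjusted p = 0.0177) and lost the call without KO replicate 1, at 0.28. The placing of its reads may be uncertain, since 13 annotated pseudogenes are named after it and it overlaps NRDE2 on the other strand. This uncertainty was not measured. PSMC5 had 35.3, 41.7 and 43.5 FPKM in WT and 41.8, 46.6 and 47.0 FPKM in KO. These groups overlapped (log2 fold change 0.17, 95% interval -0.03 to 0.36). PSMC3 and PSMC6 were at 0.14 and 0.11 and were not called.

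The non-ATPase subunits build the scaffold of the cap, its ubiquitin receptors and its lid. Of 10 listed, 7 rose and 0 fell (limma at an unadjusted p under 0.05 gave the same 7 and 0, the library adjustment 3 and 0 after adjustment), and the median was 0.28. PSMD1 and PSMD2 are the 2 largest subunits of the cap and its main scaffold. PSMD1 had 21.6, 24.4 and 22.8 FPKM in WT and 40.1, 38.2 and 36.4 FPKM in KO. The KO mean was 1.67 times the WT mean with no overlap (log2 fold change 0.72, standard error 0.066, adjusted p = 3.3e-05). PSMD1 lies on chromosome 2 from 231056864 to 231172827 and overlaps HTR2B on the other strand.

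PSMD2 had 32.6, 36.7 and 35.9 FPKM in WT and 50.5, 51.5 and 43.0 FPKM in KO, where replicate 3 was lower than the other KO libraries but still above WT. Its log2 fold change was 0.45 (standard error 0.080, adjusted p = 0.0015). PSMD3, a lid subunit, had 59.2, 58.4 and 62.9 FPKM in WT and 76.9, 78.05 and 78.4 FPKM in KO, and rose by 0.37 (standard error 0.051, adjusted p = 4.0e-04). ADRM1 is a ubiquitin receptor of the cap that also holds the deubiquitinase UCHL5. It had 93.8, 92.5 and 98.7 FPKM in WT and 109, 113 and 126 FPKM in KO. It rose by 0.28 (standard error 0.064, adjusted p = 0.0050), and it overlaps LAMA5 on the other strand. The lid subunits PSMD11, PSMD13 and PSMD6 rose by 0.35, 0.27 and 0.21, and PSMD6 lost its call when any of 4 single libraries was left out, at 0.18 to 0.21. PSMD12, PSMD7 and PSMD8 were at 0.15, 0.06 and 0.01 and were not called. PSMD8 was at -0.04 without WT replicate 1 or without KO replicate 1.

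Core and cap differed between the genotypes by similar proportions. The summed FPKM of the 9 core subunits was 775, 818 and 841 in WT and 966, 975 and 988 in KO, or 812 ± 33.3 against 976 ± 10.98 (SD, n = 3). For the 15 cap subunits it was 551, 591 and 602 in WT and 696, 681 and 711 in KO, or 581 ± 26.7 against 696 ± 14.8. The sums were 1.203 and 1.198 times as high in KO, with no overlap, and WT replicate 1 was the lowest library in both. The ratio of the core sum to the cap sum was 1.397 ± 0.0111 in WT and 1.403 ± 0.0246 in KO, and its libraries overlapped. The mean log2 fold change was 0.24 over the core and 0.26 over the cap, a difference of -0.02. This balance depended on PSMB5: without it the core mean was 0.16 and the difference -0.10, and with medians in place of means they were 0.15 and -0.12.

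**Figure D3:**
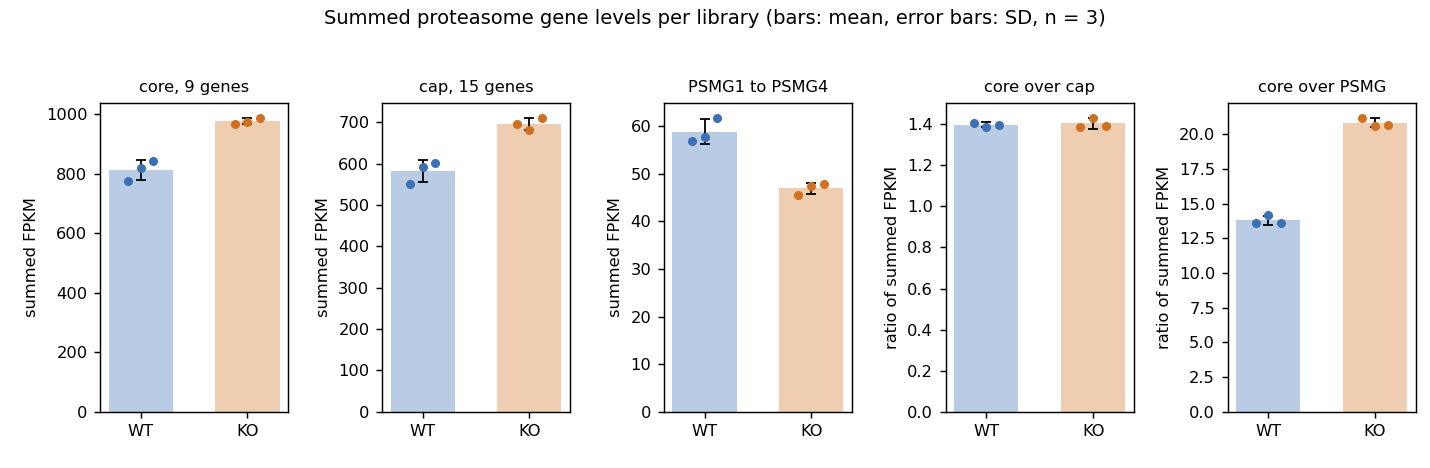
Summed FPKM of core subunits, cap subunits and PSMG assembly chaperones in each library, with points for libraries and bars for group means. Core and cap sums are higher in all 3 KO libraries, and the PSMG sum is lower in all 3.

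The rings of the core and of the cap were also summed apart. The 3 listed alpha subunits summed to 213 to 259 FPKM in WT and 236 to 271 FPKM in KO, overlapping, while the 6 beta subunits summed to 559 to 582 FPKM in WT and 704 to 741 FPKM in KO, a ratio of 1.28. PSMA7 makes up most of the alpha sum, 5 alpha subunits are not listed, and the difference between the rings was not tested. With the library adjustment the order of their median log2 fold changes was the other way round, 0.33 over the alpha subunits and 0.24 over the beta subunits. In the cap, the ATPases summed to 158 to 181 FPKM in WT and 194 to 210 FPKM in KO, and the non-ATPase subunits to 393 to 421 and 487 to 501 FPKM.

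The core is built with the help of chaperones that do not remain in it. PSMG1 pairs with PSMG2 and PSMG3 with PSMG4 to order the alpha ring, and POMP guides the beta subunits and their joining into the full core. Of these 5 factors, 0 rose and 2 fell (limma at an unadjusted p under 0.05 gave 1 and 2, the library adjustment 0 and 1 after adjustment). The share that fell, 40%, was close to the 36.5% of all loci, and the median of -0.15 to their -0.14. PSMG2 had 20.3, 21.3 and 22.3 FPKM in WT and 13.6, 14.5 and 14.9 FPKM in KO. Its KO mean was 0.674 of the WT mean (log2 fold change -0.54, standard error 0.068, adjusted p = 2.1e-04). PSMG4 had 11.3, 11.2 and 12.7 FPKM in WT and 7.59, 7.85 and 8.13 FPKM in KO, a ratio of 0.670 (log2 fold change -0.52, standard error 0.085, adjusted p = 8.9e-04). All KO libraries were below all WT libraries in both genes, and these were the lowest log2 fold changes of the set. Their partners were at -0.15 (PSMG1, with no overlap) and 0.04 (PSMG3), and neither was called.

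POMP had 27.7, 37.8 and 34.7 FPKM in WT and 37.2, 44.0 and 39.5 FPKM in KO. The groups overlapped through the high WT replicate 2, and the log2 fold change of 0.27 (95% interval 0.02 to 0.52) missed the threshold at an adjusted p of 0.0616. POMP was called higher under 5 of the 14 alternatives, among them without WT replicate 2, at 0.36. The summed FPKM of all 5 core assembly factors was 92.2 ± 6.57 in WT and 87.2 ± 4.26 in KO (SD, n = 3), a ratio of 0.946, and its libraries overlapped. The summed FPKM of PSMG1 to PSMG4 alone, a split made with the values known, was 56.9, 57.7 and 61.8 in WT and 45.6, 47.3 and 47.8 in KO. Of the chaperones that assemble the base of the cap only PSMD9 was listed. It had 7.94, 10.4 and 7.10 FPKM in WT and 6.77, 7.08 and 5.92 FPKM in KO, all KO libraries below all WT libraries by a narrow margin (log2 fold change -0.31, adjusted p = 0.0818). PSMG2 overlaps SPIRE1 and CEP76 and PSMG4 overlaps TUBB2B and SLC22A23, all on the opposite strand, and PSMD9 overlaps WDR66 on its own strand.

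The alternative activators bind the core in place of the cap. PSME1, part of an activator ring induced by interferon, had 123.6, 120.2 and 120.3 FPKM in WT and 180.4, 176 and 186 FPKM in KO. The groups were far apart (log2 fold change 0.57, standard error 0.050, adjusted p = 2.5e-05), and the KO mean was 1.49 times the WT mean. Its usual partner PSME2 was not listed by name. PSME3, the activator found in the nucleus, had 19.9, 22.7 and 21.9 FPKM in WT and 19.5, 19.3 and 17.5 FPKM in KO, with the KO libraries just below WT (log2 fold change -0.19, adjusted p = 0.058). PSMF1, which inhibits the core in purified form, had 43.4, 50.05 and 50.6 FPKM in WT and 40.1, 38.3 and 39.1 FPKM in KO. It fell by 0.28 on the log2 scale (standard error 0.068, adjusted p = 0.0069), a ratio of 0.816, but the transcript behind its row is annotated as a processed transcript and not as coding. PSME1 overlaps EMC9, PSME3 overlaps BECN1 and PSMF1 overlaps TMEM74B on the other strand.

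The order of levels among the members was much the same in both genotypes. FPKM is scaled to length, so levels can be set beside each other across genes. In WT they ran from 8.48 FPKM for PSMD9 to 216 FPKM for PSMA7, a span of 25.4 times, and in KO from 6.59 to 222 FPKM, a span of 33.8 times. Core subunits spanned 18.3 times in WT and cap subunits 8.99 times, although the complex holds these subunits in fixed proportion. The levels of the 34 members in WT and KO had a Spearman rho of 0.985, a description over genes that share libraries. PSMA7, PSMB1, PSMB3, PSME1, PSMB4, ADRM1 and PSMB5 were ranks 1 to 7 in WT. PSMB5 moved from rank 7 to 5, PSMD1 from 22 to 19, and PSMF1 from 14 to 18. Many neighbours in the order did not differ beyond their spread: PSMD8 (57.1 ± 3.27 FPKM in WT), PSMD7 (57.1 ± 4.05 FPKM) and PSMD3 (60.2 ± 2.42 FPKM) lay within it. The log2 fold change and the mean FPKM of the members had a rho of 0.481, so that abundant members tended to be those with higher log2 fold changes. Among loci with a mean of at least 10 FPKM, 23.2% of all loci rose and 40.1% fell.

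The 2 highest members on chromosome 14 lay among genes that were higher as well. PSMB5 and PSME1 (24136158 to 24138967, plus strand) both fall between ABHD4 and FBXO33, from 22598237 to 39432500, an interval whose edges were set on these same data. There, 40 of 48 other loci rose and 1 fell, with a median log2 fold change of 0.60. Of the 114 other loci on chromosome 14, 38 rose and 29 fell, with a median of 0.00. The median over up to 10 loci that are not members on each side was 0.54 for PSMB5 and 0.85 for PSME1. It was -0.10 for PSMD1, -0.07 for PSMD2, -0.25 for PSMB1, -0.16 for PSMC4 and -0.20 for PSMD3, all of which rose. Among the other members that rose, it was above 0 for PSMD13 (0.15), PSMD6 (0.09), PSMC1 (0.08) and PSMB4 (0.07). It was below 0 for PSMB2 (-0.10), PSMD11 (-0.12) and ADRM1 (-0.01). For the fallen chaperones PSMG2 and PSMG4 it was -0.26 in both cases. Over 34 members, the log2 fold change and the median of the neighbours had a rho of 0.378. The part of chromosomal position in the values of PSMB5 and PSME1 was not tested.

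**Figure D4:**
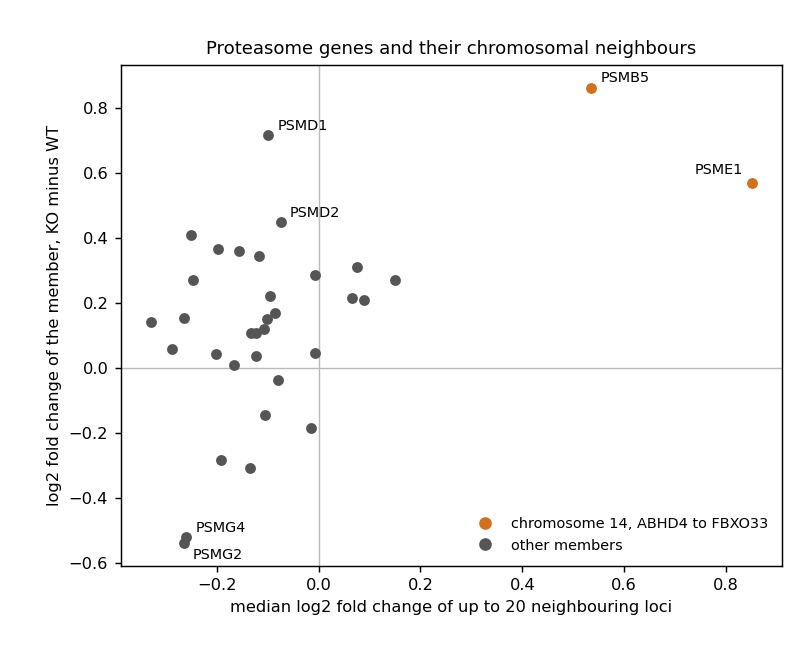
Log2 fold change of each proteasome gene (vertical) against the median log2 fold change of up to 20 neighbouring loci (horizontal). Orange points are the 2 members between ABHD4 and FBXO33 on chromosome 14, at the right edge with neighbour medians of 0.54 and 0.85. PSMD1 and PSMD2 are high with neighbours just below 0.

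The genes that act next to the proteasome included some that rose and some that fell, and their counts can be read against all loci (21.2% higher, 36.5% lower, median -0.14). Of 8 listed factors that bind the proteasome without belonging to the named families, 0 rose and 3 fell (37.5%), with a median of -0.15 (limma at an unadjusted p under 0.05 gave 0 and 3, the library adjustment 0 and 0 after adjustment and 1 and 1 before it). The 8 include SEM1, listed as SHFM1, a cap subunit that its name kept out of the cap counts and sums. It was at 0.15, was not called, and its groups overlapped. AKIRIN2, which carries proteasomes into the nucleus, had 35.8, 33.9955 and 36.2 FPKM in WT and 23.1, 25.9 and 27.0 FPKM in KO (log2 fold change -0.47, adjusted p = 5.3e-04). ECPAS, a scaffold that binds proteasomes, listed as KIAA0368, fell by 0.27 on the log2 scale (adjusted p = 0.019). Neither overlapped between the groups.

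Of 10 listed shuttles and extraction factors, which hand ubiquitinated proteins to the proteasome, 2 rose (20%) and 4 fell (40%), with a median of -0.08, shares close to the 21.2% and 36.5% of all loci. UFD1, listed as UFD1L, a cofactor of the segregase VCP, had 11.7, 10.4 and 12.01 FPKM in WT and 17.06, 16.005 and 16.96 FPKM in KO (log2 fold change 0.52, adjusted p = 5.2e-04), and UBXN4, which anchors VCP to the endoplasmic reticulum, rose by 0.15 (adjusted p = 0.031). UBXN1, another VCP cofactor, had 40.8, 46.5 and 49.7 FPKM in WT and 31.2, 28.6 and 31.9 FPKM in KO (log2 fold change -0.56, adjusted p = 4.2e-04). UBQLN4, a shuttle of the ubiquilin family, fell by 0.47 on the log2 scale (adjusted p = 0.0010). The library adjustment left 0 higher and 2 lower.

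Of 3 listed ubiquitin and E1 genes, 0 rose and 1 fell, with a median of -0.12 (limma at an unadjusted p under 0.05 gave 0 and 1, the library adjustment also 0 and 1, before and after adjustment). RPS27A, which encodes ubiquitin fused to a ribosomal protein, had 312.5, 381 and 362 FPKM in WT and 184, 199 and 189 FPKM in KO. The groups were far apart (log2 fold change -0.88, adjusted p = 3.1e-05). Reads of ribosomal protein genes can be split with processed copies, so these levels are less certain.

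Of the 14 genes that process NFE2L1 or act with it, 7 were listed, 1 rose and 1 fell, with a median of -0.18. VCP, the ATPase that pulls NFE2L1 out of the endoplasmic reticulum, had 60.4, 61.3 and 61.7 FPKM in WT and 79.7, 81.2 and 81.1 FPKM in KO. It rose by 0.39 on the log2 scale (standard error 0.047, adjusted p = 1.5e-04). SEL1L, a scaffold of the endoplasmic reticulum ubiquitin ligase, had 22.5, 28.4 and 26.9 FPKM in WT and 10.4, 11.2 and 9.30 FPKM in KO. It fell by 1.25 on the log2 scale (standard error 0.101, adjusted p = 1.6e-05), with no overlap.

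**Figure D5:**
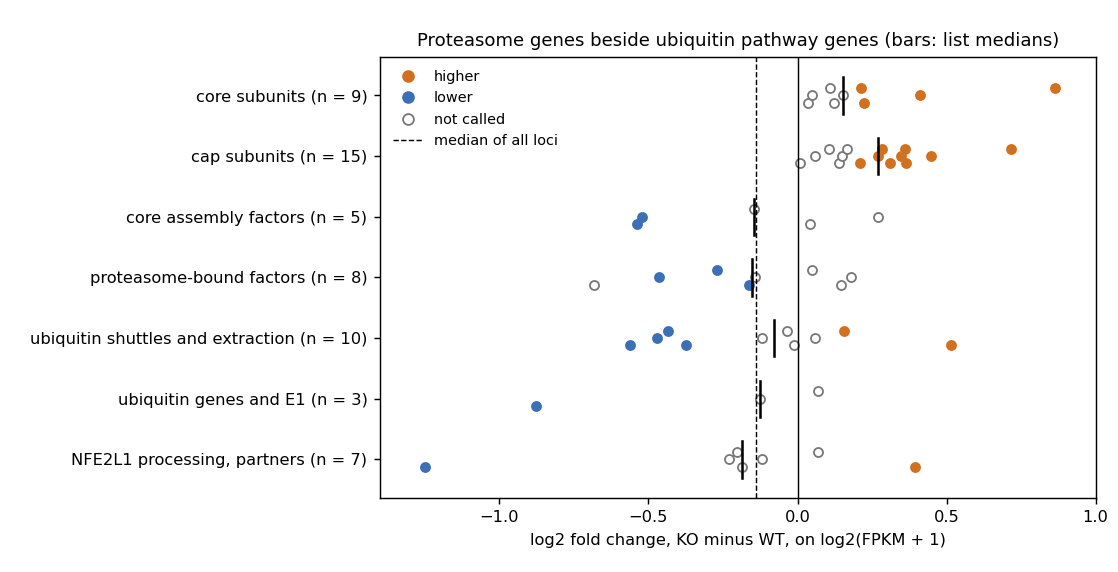
Log2 fold changes (KO minus WT, on log2(FPKM + 1)) of core, cap and core assembly genes beside lists of ubiquitin pathway genes, 1 point a gene, with a bar for each list median and a dashed line at the median of all loci. Core and cap subunits lie right of 0 throughout, and the other lists spread to both sides with medians between -0.18 and -0.08.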

How the data were processed

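RNA-seq libraries of WT and FN3K KO HepG2 cells (3 each) were analysed. The authors used HISAT2 for mapping, StringTie for assembly and quantification and Ballgown for the comparison, and deposited FPKM values per locus. The submitters' processing notes name StringTie 2.0.6 and GRCh38.p5. Strand and the selection of loci are not given in the sources used here. FPKM holds no read counts, so no counting interval was computed.

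The log2(FPKM + 1) values of 6357 loci, a scale that understates changes of low loci, were compared with limma 3.58.1 in R 4.3.3 (lmFit and eBayes, trend fitted), with Benjamini-Hochberg adjustment. The test was checked only on simulated data with independent noise, few changed loci and no common shift. That check does not cover data such as these, where 57.7% of all loci were called. Alternatives were another pseudocount, minimum means, a common 75th percentile or median, no variance trend, Ballgown's library adjustment, a replicate block and each library left out. Positions came from GENCODE version 29, matched for 4892 loci. Values per library are printed for ADRM1, POMP, the 3 members with the largest log2 fold change in each structural list and those with a promoter shown. In other lists, the 2 called genes furthest from 0 in each direction are named, and also SEM1. An item of the ubiquitin list is not reported here. Members and lists were chosen with earlier results of these data known. Tables and figures were made in Python 3.11.15 (numpy 2.4.6, pandas 2.3.3, scipy 1.17.1, matplotlib 3.10.9).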

Additional observations from a re-analysis of the deposited data

How the results depend on the processing

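The library adjustment of Ballgown left 8 members higher and 1 lower, where limma gave 14 and 3, and over all loci 606 higher and 521 lower, where limma gave 1348 and 2322. The model that carried it was also fitted without eBayes, and which of these changes lost the calls was not tested. The library adjustment kept PSMB5, PSMB1, PSMB4, PSMD1, PSMD3, PSMD11, PSME1 and PSMG2 and added PSMA7. Other settings gave 14 to 21 members higher and 2 to 4 lower, the most with a common median (21 and 3). With 1 library left out, 12 to 15 were higher and 3 to 4 lower. Of 17 called members, 8 were called in the same direction under all 14 settings. Over all loci, the replicate numbers showed no clear pairing of the libraries (correlations of same-numbered deviations 0.0096, 0.0061 and 0.0458). Whether the plates were paired is not known. With the number as a block, 17 were higher and 4 lower.

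The core and cap means were 0.31 and 0.33 with a common median and likewise with the library adjustment. Without PSMB5, the core mean was 0.16 and core minus cap -0.10, and with medians over members 0.15 and -0.12. With 1 library left out, the core mean was 0.20 to 0.27, the cap mean 0.22 to 0.29 and their difference -0.04 to -0.01.

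Only members that were not called changed sign. With 1 library left out, PSMA4 ranged from -0.024 to 0.20, PSMA7 from -0.050 to 0.10 (-0.018 without KO replicate 2), PSMA5 from -0.0018 to 0.062, PSMB8 from -0.11 to 0.0097, PSMD8 from -0.040 to 0.052 (-0.039 without KO replicate 1) and PSMG3 from -0.012 to 0.078. PSMB8 was at 0.0070 with a common 75th percentile, 0.032 with a common median and 0.10 with the library adjustment. The cause of these shifts was not tested. The depth is unknown, and 3 plates a group limit the precision.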
